A study of Saccharomyces cerevisiae with 6 samples.

Results

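The genes described here encode the proteins of the yeast mitochondrial ribosome. They were chosen by their symbol in the platform's probe table, as every gene named MRPL, MRPS, MRP or RSM followed by a number, which gave 67 genes of 5656 with a probe set of their own. Of these, 37 belong to the large subunit and 28 to the small subunit. MRP35 and MRP8 stand in neither list. MRP35 carries the systematic name bL35m of a large subunit protein but was left out when the lists were drawn up. MRP8 was first taken for a mitochondrial ribosomal protein and is not an established part of the ribosome.

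The mitochondrial ribosome translates the few messenger RNAs that are read from mitochondrial DNA. Most of these encode core subunits of the respiratory chain and of ATP synthase, without which yeast cannot grow on ethanol. Apart from Var1, which the mitochondrial DNA itself encodes, its proteins are encoded in the nucleus, made by cytosolic ribosomes and imported. Some descend from bacterial ribosomal proteins, and others have no bacterial counterpart.

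All samples were cultures of the Saccharomyces cerevisiae strain 3238-32, of mating type a (MATa), with the alleles leu2∆1, lys2-801 and ura3-52. Cells from a rich-medium preculture of 24 h at 30°C had used up their sugar. After washing and a 10-fold dilution they were kept still at 27°C for 48 h, in 250 ml beakers holding 100 ml of minimal medium with 4% ethanol, leucine, histidine and uracil. The biofilm group is the film that formed at the surface (floaters in the labels), and the bottom layer group is the settled cells beneath it (sinkers). Each group was measured on 3 arrays, 6 in all. Triplicate beakers are mentioned in the labels, but which beaker gave which array is not, so the p-values cover only the spread among these samples, which may be technical. Cells of both groups were clumped. In such bulk samples fewer expressing cells and less RNA per cell cannot be told apart.

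Signals are linear intensities that the authors had scaled, with a trimmed mean near 499.8 on each array. Median signals ran from 128 to 151. The third bottom layer array stood apart: its hybridisation control BioB-M read 905, against 269 to 362 on the other 5 arrays, and its ACT1 3' to 5' signal ratio was 3.84. That ratio, a sign of RNA length, was 1.54 to 2.04 in the biofilm and 1.80 to 2.36 on the other bottom layer arrays. Calls below that change without that array, or with the ratio as a covariate, are named as such. The number of arrays limits the precision, with a median standard error of 0.16 on the log2 scale for these genes.

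Most mitochondrial ribosomal protein genes had more signal in the biofilm, usually by less than 2-fold. All 67 passed the filter on dim genes, and none lay below the unspiked control probe sets on any array. In the fit with limma over 4242 genes, 42 of the 67 rose in the biofilm, 4 fell and 21 did not pass a Benjamini-Hochberg adjusted p of 0.05. Among all genes tested 38.0% were higher and 24.4% lower, against 62.7% and 5.97% of the 67. In either direction 46 of the 67 passed, beside 62.5% of all genes. Their median log2 fold change was 0.66, beside 0.17 for all genes tested, and their middle 50% ran from 0.23 to 1.03. In 46 of the 67 every biofilm array lay above every bottom layer array, and in 5 every one lay below, where 41.3% and 26.7% of all genes did. The rises reached at least 2-fold in 19 of the 67 genes, beside 821 of all 4242 tested (19.4%). The falls did so in 1 of the 67, MRP8, beside 552 of the 4242 (13.0%).

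**Figure D1:**
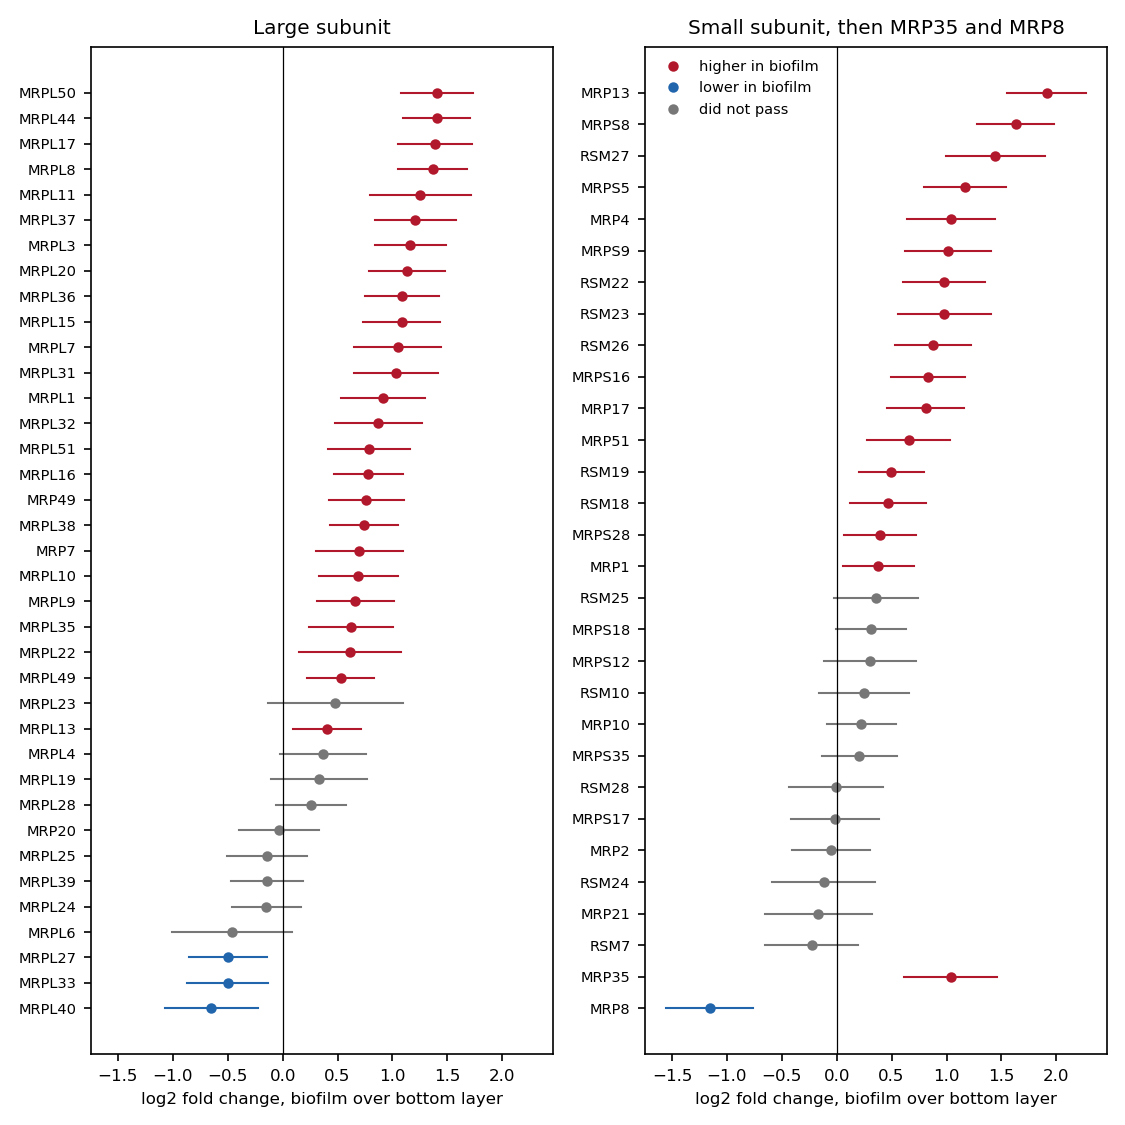
Log2 fold change of each of the 67 genes, biofilm over bottom layer (points, from the limma fit on 3 arrays per group), with 95% confidence intervals (lines); colour shows whether the adjusted p was below 0.05. Large subunit genes run from 1.40 to -0.65 and small subunit genes from 1.91 to -0.23, with MRP35 and MRP8 at the foot of the right panel.

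Genes of both subunits were mostly higher. Of all genes tested 38.0% were higher and 24.4% lower. For the large subunit 25 of 37 rose (67.6%), 3 fell (8.11%) and 9 did not pass. For the small subunit 16 of 28 rose (57.1%), none fell by limma and 12 did not pass. At an unadjusted p below 0.05 the number of small subunit genes lower was also 0. The median log2 fold change was 0.70 for the large and 0.43 for the small subunit, a difference of 0.27, but the means were 0.61 and 0.58. The quartiles, 0.33 to 1.08 and 0.22 to 0.98, overlapped over most of their range. On the single arrays the mean log2 value of large subunit genes exceeded that of small subunit genes by 0.28, 0.29 and 0.28 in biofilm and by 0.23, 0.28 and 0.26 in bottom layer arrays. The third biofilm array gave the lowest signal of its group for 43 of the 67 genes, and the third bottom layer array for 33. The median coefficient of variation of a gene was 11.1% over biofilm and 12.3% over bottom layer arrays.

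In the small subunit the largest rises were those of MRP13, MRPS8 and RSM27. MRP13 encodes mS44, which has no bacterial counterpart. Its signal was 711, 717 and 641 in biofilm and 196, 164 and 157 in bottom layer arrays, a 3.76-fold difference (log2 fold change 1.91, SE 0.16, adjusted p = 4.99e-06 by limma). No other of the 67 genes had a larger change in either direction, and its biofilm arrays lay far above the bottom layer. MRPS8, the counterpart of bacterial S8, gave 1406, 1442 and 1217 against 496, 421 and 369, or 3.10-fold (SE 0.16 on the log2 scale, adjusted p = 1.21e-05 by limma). For RSM27, which encodes the mitochondrion-specific mS33, the arrays gave 484, 553 and 372 against 189, 168 and 129.6, or 2.72-fold (SE 0.20 on the log2 scale, adjusted p = 0.000137 by limma). The lowest biofilm array of RSM27 was still well above the highest of the bottom layer.

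**Figure D2:**
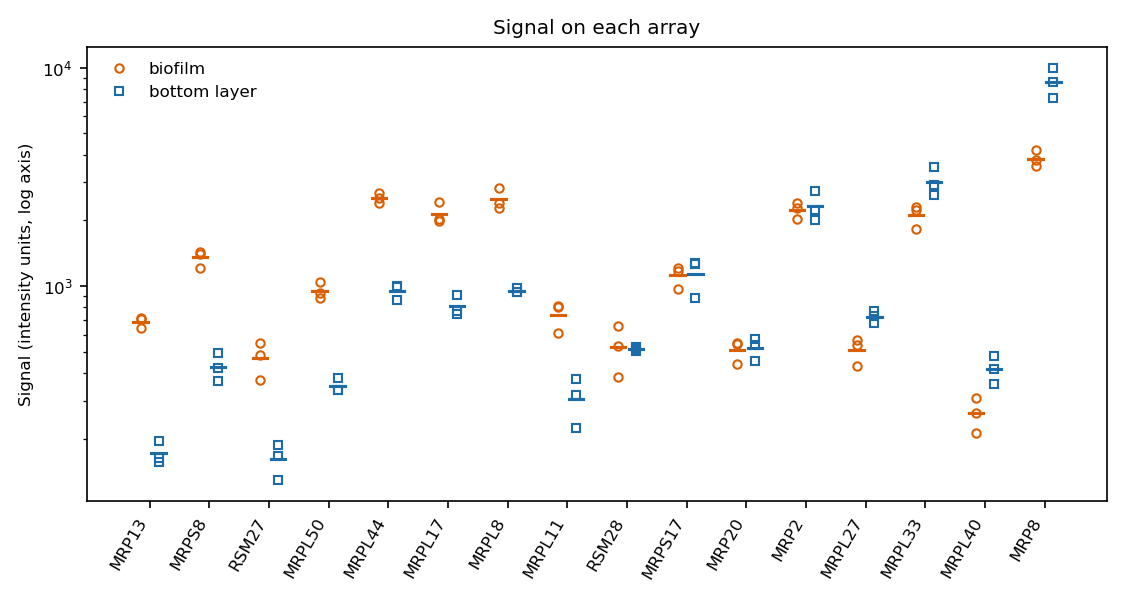
Signal on each of the 6 arrays (log axis, intensity units) for the 8 largest rises, the 4 genes nearest to no change and the 4 falls; circles are biofilm and squares bottom layer arrays, and bars are means of 3 arrays. The groups separate fully for the rises and the falls, as for MRP13 with 641 or more against 196 or less, and overlap for RSM28, MRPS17, MRP20 and MRP2.

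Higher were 1 of 2 genes for proteins along the messenger RNA path and 2 of 4 for proteins that join the subunit early. The others did not pass. With 38.0% of all genes higher, groups this small, named after their values were seen, cannot show a shared change. In Escherichia coli S7, S8, S15 and S17 are among the proteins that bind the small subunit RNA directly. Beside MRPS8, the counterpart of S15, MRPS28, rose 1.31-fold (adjusted p = 0.0383 by limma; 0.139 without the first biofilm array), while those of S17 and S7, MRPS17 and RSM7, did not pass, with log2 fold changes of -0.01 and -0.23. MRPS17 read 1179.6, 1210.4 and 971 in biofilm and 1278, 1267 and 881 in bottom layer arrays, so that the groups overlapped. RSM7, whose signal was high in both groups, read 2577, 2400.0 and 3298 against 2801, 2926 and 4019, again overlapping. MRPS5, the counterpart of S5, which lines the messenger RNA entry in bacteria, rose 2.25-fold, from 386 ± 60.8 to 884 ± 97.1 (mean ± SD, n = 3 arrays, adjusted p = 0.000156 by limma). MRPS12, the counterpart of S12 in the bacterial decoding centre, was measured at 4542, 4800.4 and 6373 in biofilm and 4276, 3592 and 4791 in bottom layer arrays. Its 1.24-fold difference did not pass (adjusted p = 0.182 by limma), but did after quantile normalization (adjusted p = 0.0170 by limma). Of all 67 genes, MRPS12 and RSM19 are the only pair that neighbour each other in the reference assembly R64. RSM19 passed, at 1617 ± 46.1 against 1140.4 ± 49.9 (1.41-fold), but not after median centring (log2 fold change 0.29, adjusted p = 0.131 by limma).

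Of 5 genes, all among the 67, for counterparts of bacterial small subunit head proteins, MRPS9 and RSM19 were higher (40.0%, near the 38.0% of all genes). None was lower by limma, beside 24.4% of all genes, and RSM7, RSM10 and MRP2 did not pass. MRPS9 rose 2.02-fold, from 789.8 ± 74.3 to 1629 ± 332, and MRP2 gave 2035, 2279 and 2395 in biofilm and 2728, 2018 and 2233 in bottom layer arrays. The MRP2 groups overlapped, with a log2 fold change of -0.05 and a 95% confidence interval from -0.40 to 0.31. RSM10 differed by 0.24 on the log2 scale with an interval from -0.17 to 0.66. MRP17 and RSM18, counterparts of S6 and S18, which bind as a pair on the bacterial platform, were 1.75-fold and 1.38-fold higher. MRP1 and RSM26 encode mitochondrion-specific proteins related to superoxide dismutase. RSM26 rose 1.84-fold (adjusted p = 0.000652 by limma) and MRP1 1.30-fold (adjusted p = 0.0430 by limma). The calls of MRP1, MRPS28 and RSM18 were the least steady here: MRP1 did not pass on leaving out any of 5 arrays (0.0526 to 0.132), MRPS28 on leaving out any of 4 (0.0688 to 0.139) and RSM18 on leaving out any of 4 (0.0508 to 0.0895). For each of the 3 genes these arrays included the third bottom layer array. Without it adjusted p was 0.106 for MRP1, 0.0924 for MRPS28 and 0.0508 for RSM18 by limma. With the ACT1 ratio as a covariate the 3 genes did not pass either, with adjusted p = 0.273 for MRP1, 0.276 for MRPS28 and 0.0558 for RSM18 by limma.

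The other small subunit genes that rose were MRP4 (2.06-fold), RSM22, RSM23, MRPS16 (1.78-fold) and MRP51 (1.58-fold). MRP51 did not pass with the ACT1 ratio as a covariate (log2 fold change 0.48, adjusted p = 0.0652 by limma). RSM22 encodes a methyltransferase-like protein and had 272, 239 and 228 in the biofilm against 127, 123 and 103. RSM23, the yeast relative of the human death-associated protein DAP3, had 191 ± 36.2 against 88.6 ± 13.0. Both were 1.97-fold higher, with no overlap. The genes that did not pass and are not yet named were RSM25, MRPS18, MRP10, MRPS35, RSM28, RSM24 and MRP21, with log2 fold changes from 0.36 to -0.17. RSM28 lay closest to 0, at 534, 656 and 386 in biofilm and 528, 506 and 517 in bottom layer arrays, where the biofilm arrays spread on both sides of a tight bottom layer. MRP10, a small protein with paired cysteines, had a log2 fold change of 0.22 (interval -0.09 to 0.54), and its lowest biofilm value, 1449, was just above the highest of the bottom layer, 1439.

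In the large subunit the 5 largest rises were those of MRPL50, MRPL44, MRPL17, MRPL8 and MRPL11. MRPL50, the counterpart of bacterial L9, gave 1043, 935 and 885 in biofilm and 379.5, 335 and 336 in bottom layer arrays (2.65-fold, SE 0.15 on the log2 scale, adjusted p = 2.02e-05 by limma). MRPL44, which encodes the mitochondrion-specific mL53, gave 2394, 2534 and 2684 against 988, 865 and 1002 (2.64-fold, adjusted p = 1.33e-05 by limma). It is the one gene here with a second probe set, which was dimmer, at 280 ± 65.7 against 80.8 ± 17.4. The second probe set differed by 1.60 on the log2 scale and the first by 1.40, so both placed the biofilm higher.

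MRPL17, MRPL8 and MRPL11 rose by similar amounts. MRPL17, for mL46 of the central protuberance, had 1984, 2420.2 and 2036 in the biofilm against 916, 750.5 and 768 (2.61-fold, adjusted p = 2.41e-05 by limma). MRPL8, the counterpart of L17, had 2276, 2813 and 2396 against 942, 941 and 978 (2.58-fold, adjusted p = 1.78e-05 by limma). MRPL11, the counterpart of L10, on which the stalk that recruits translation factors is built, had 802, 811 and 612 against 317, 375 and 224 (2.39-fold, adjusted p = 0.000389 by limma). In all 3 genes the lowest biofilm array was above the highest bottom layer array.

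Around the exit of the nascent peptide tunnel the genes did not move together. In bacteria L17, L22, L23, L24 and L29 surround this exit, and their yeast counterparts are MRPL8, MRPL22, MRP20, MRPL40 and MRPL4. MRPL8 rose as above, and MRPL22 rose 1.53-fold with overlapping groups, at 499.7, 473 and 311 against 252, 319 and 241 (adjusted p = 0.0261 by limma). It did not pass on leaving out any of 4 arrays (adjusted p = 0.0603 to 0.106 by limma), among them the third bottom layer array (0.0603). With the ACT1 ratio as a covariate MRPL22 did not pass either (adjusted p = 0.121 by limma). MRP20 read 548, 441 and 542 in biofilm and 455, 574 and 536 in bottom layer arrays, with a log2 fold change of -0.03 and an interval from -0.40 to 0.33. MRPL4 did not pass (log2 fold change 0.37, adjusted p = 0.0910 by limma), but did without the third bottom layer array (0.51, adjusted p = 0.0229 by limma). MRPL40 went the other way: 309.6, 263 and 212 in the biofilm against 358, 480.1 and 417, 1.57-fold lower (adjusted p = 0.0122 by limma). Of these 5 genes 2 were higher (40.0%), 1 was lower (20.0%) and 2 did not pass. Both shares were near those of all genes tested, 38.0% and 24.4%.

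Elsewhere in the large subunit most of the genes grouped by role were higher, beside 38.0% of all genes tested. These groups are small and were named after their values were seen, so they cannot show a shared change. Of 6 genes for proteins of the central protuberance, the crest at the top of the subunit, 5 were higher: MRPL17, MRPL36 (L31 in bacteria, 2.12-fold), MRPL7 (L5, 2.07-fold), MRP7 (L27, 1.62-fold) and MRPL35 (1.54-fold). The sixth, MRPL28, did not pass (log2 fold change 0.26), although its groups did not overlap. MRPL9, MRPL16 and MRPL10, counterparts of L3, L16 and L15 near the peptidyl transferase centre in bacteria, were all higher, by 1.58-fold, 1.72-fold and 1.61-fold. MRPL3 and MRPL15, mitochondrion-specific proteins with a fold like that of ribonuclease III, rose 2.24-fold and 2.12-fold. MRPL3 gave 2259, 2120.4 and 2118 in the biofilm against 1099, 899 and 887, and MRPL15 gave 921, 780.4 and 914 against 375, 376 and 461. Of the other stalk genes among the 67, MRPL1 (L1) rose 1.89-fold, while MRPL19 (L11) did not pass, at 1.26-fold (adjusted p = 0.163 by limma). The rise of MRPL32 (L32), whose product is matured by the mitochondrial m-AAA protease, was 1.83-fold.

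The other large subunit genes that rose were MRPL37 (2.31-fold), MRPL20 (2.20-fold), MRPL31 (2.04-fold), MRPL51 (1.73-fold), MRP49 (1.69-fold), MRPL38 (1.67-fold), MRPL49 (1.44-fold) and MRPL13 (1.32-fold). MRPL13 did not pass without the first or second biofilm or the first bottom layer array (adjusted p = 0.0691 to 0.0909 by limma), or with the ACT1 ratio as a covariate (0.0518). MRP35, outside both lists, rose 2.05-fold. With it counted in the large subunit, 26 of 38 genes were higher (68.4%, beside 38.0% of all genes tested) and the median was 0.72. MRPL23, MRPL25, MRPL39, MRPL24 and MRPL6 did not pass, though MRPL23 did as higher without the second bottom layer array (0.74, adjusted p = 0.0241 by limma). MRPL39, the counterpart of L33, read 3613, 3626 and 3116 in biofilm and 3831, 3872 and 3731 in bottom layer arrays, so that the biofilm lay slightly lower on every array with a log2 fold change of -0.15. MRPL6, the counterpart of L6, had 349, 562 and 336 against 597, 724 and 415. Its log2 fold change of -0.47 did not pass (adjusted p = 0.122 by limma), but did without the second biofilm array (-0.69, adjusted p = 0.0332) and without the third bottom layer array (-0.68, adjusted p = 0.0269). It also passed after median centring, where it was -0.67 (adjusted p = 0.0175 by limma).

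Beside MRPL40, MRPL27 and MRPL33 were lower in the biofilm. MRPL27, which encodes the mitochondrion-specific mL41, gave 568, 539 and 431 in biofilm and 729, 767 and 682 in bottom layer arrays (1.41-fold lower, adjusted p = 0.0182 by limma). MRPL33, the counterpart of L30, gave 2227, 2307 and 1827 against 2620.1, 2903 and 3518 (1.41-fold lower, adjusted p = 0.0231 by limma). The groups of all 3 genes were separate, but without the third biofilm array, their lowest in each case, none of the 3 passed, with adjusted p = 0.0531 for MRPL40, 0.0732 for MRPL27 and 0.0942 for MRPL33 by limma. MRPL33 also did not pass without the third bottom layer array (adjusted p = 0.0614 by limma) or with the ACT1 ratio as a covariate (log2 fold change -0.32). The call of MRPL27 was lost as well without the first bottom layer array (adjusted p = 0.0505 by limma).

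MRP8, not an established ribosomal protein, had the largest fall of the 67 genes. It read 3773, 4218 and 3533 in biofilm and 8615, 7296 and 10006 in bottom layer arrays, 2.23-fold lower (log2 fold change -1.16, SE 0.18, adjusted p = 0.000243 by limma). Every bottom layer array was above every biofilm array by a wide margin, and the call held in each of the 17 alternative settings. Without MRP8, 42 of 66 genes were higher and 3 lower, and 0 were lower by at least 2-fold.

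Genes with and without a bacterial counterpart were both mostly higher. Of 41 genes whose systematic name marks a bacterial counterpart 25 were higher (61.0%) and 2 lower (4.88%), with a median log2 fold change of 0.61. Of 24 mitochondrion-specific genes 16 were higher (66.7%) and 1 lower (4.17%), with a median of 0.77. Among all genes tested 38.0% were higher and 24.4% lower. The mitochondrion-specific genes of the large subunit had the highest median, 0.91 over 14 genes, and those of the small subunit the lowest, 0.37 over 10, with a mean of 0.63. Across the 67 genes, log2 fold changes and mean log2 values had a Pearson correlation of -0.19 and a Spearman correlation of -0.11. This is a description across genes that share the same arrays.

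Other mitochondrial ribosomal proteins have names that do not follow the pattern. Of 15 such genes 14 were tested, of which 6 were higher (42.9%, near the 38.0% of all genes), with a median log2 fold change of 0.28. None was lower by limma (also 0 at an unadjusted p below 0.05), beside 24.4% of all genes. SWS2, the counterpart of S13, rose from 773 ± 85.4 to 1294 ± 163, and MNP1, which encodes the stalk protein related to L12, from 954 ± 30.3 to 1313 ± 77.7. MNP1 did not pass without the first biofilm array (adjusted p = 0.0538 by limma). RML2, the counterpart of L2, rose 1.78-fold, but gave 747, 601 and 272 in the bottom layer, where the third array was far below the others. With the ACT1 ratio as a covariate its log2 fold change was 0.27 in place of 0.83 and did not pass, nor did it on leaving out any of the biofilm arrays (adjusted p = 0.0623 to 0.0711 by limma). IMG2 rose 1.55-fold with overlapping groups, and did not pass on leaving out any of 4 arrays (adjusted p = 0.0659 to 0.0839 by limma). VAR1 was left out as dim.

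Of 8 translation factor genes of the mitochondrial ribosome that were tested, 5 were higher (62.5%) and 1 lower (12.5%). Among all genes tested the shares were 38.0% and 24.4%. MRF1, the release factor that ends translation, gave 337, 410.2 and 278 in the biofilm against 125, 79.2 and 93.8 in the bottom layer (3.11-fold, adjusted p = 6.95e-05 by limma). The initiation factor genes AIM23 and IFM1 rose 2.25-fold and 2.16-fold and the elongation factor gene MEF1 1.99-fold. MEF2, which acts in ribosome recycling, was 1.66-fold lower, at 325 ± 112 against 533 ± 65.1, though not without the second biofilm array (adjusted p = 0.0775 by limma) or the third bottom layer array (adjusted p = 0.0525 by limma), nor with the ACT1 ratio as a covariate (0.0533). Of 10 assembly and RNA processing genes 4 were higher (40.0%, near the share of all genes). None was lower by limma (also 0 at an unadjusted p below 0.05), beside 24.4% of all genes. MRM1, a methyltransferase of the large ribosomal RNA, rose from 524 ± 22.3 to 1518 ± 107, MTG3, a GTPase of small subunit assembly, from 84.3 ± 20.9 to 273 ± 16.1, and the helicase gene MSS116 2.21-fold. ATP25, which acts in large subunit assembly and on the OLI1 message, rose 1.89-fold.

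Of 12 mitochondrial aminoacyl-tRNA synthetase genes 9 were higher and none lower by limma (also 0 at an unadjusted p below 0.05), with a median of 1.03. The enzyme genes for isoleucine (ISM1), arginine (MSR1), phenylalanine (MSF1) and tryptophan (MSW1) rose 2.77-fold, 2.64-fold, 2.39-fold and 2.52-fold. Translational activators help single mitochondrial messages onto the ribosome. Of 17 such genes 9 were tested and the others were left out as dim. Among the 9, 4 were higher (44.4%, near the share of all genes) and 1 was lower (11.1%, beside 24.4% of all genes). CBP3 and CBP6 encode partners in a complex that binds at the tunnel exit and serves cytochrome b. CBP3 rose from 238 ± 64.4 to 565 ± 73.2 (adjusted p = 0.000612 by limma), whereas CBP6 was 1.40-fold lower, at 858 ± 86.0 against 1207 ± 78.5 (adjusted p = 0.0124 by limma). With the ACT1 ratio as a covariate CBP6 did not pass (adjusted p = 0.0643 by limma). AEP2 and AEP1, which act for the OLI1 message, rose 2.21-fold and 1.44-fold, but AEP1 did not pass without the first or the second biofilm array (adjusted p = 0.0875 and 0.0574 by limma) or with the ACT1 ratio as a covariate (0.106).

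Genes for mitochondrial DNA and transcription went both ways. ABF2, which packages the mitochondrial DNA, was 1.76-fold lower, at 809, 849 and 597 in the biofilm against 1151, 1542 and 1301 (adjusted p = 0.00235 by limma). SUV3, a helicase of mitochondrial RNA decay, and MTF1, the transcription factor of the mitochondrial RNA polymerase, rose 1.91-fold and 1.48-fold, but MTF1 did not pass without the second or the third biofilm array (adjusted p = 0.0527 and 0.0508 by limma). With the ACT1 ratio as a covariate MTF1 did not pass either, at a log2 fold change of 0.37 in place of 0.57 (adjusted p = 0.153 by limma). The gene of that polymerase, RPO41, did not pass (log2 fold change -0.31, adjusted p = 0.220 by limma), but did after median centring (-0.52, adjusted p = 0.0242) and with the ACT1 ratio as a covariate (-0.59, adjusted p = 0.0488). Of 8 genes that the mitochondrial DNA encodes, COX1 and OLI1 were tested. They had log2 fold changes of -0.05 and -0.21 and did not pass (by limma, 0 of the 2 also at an unadjusted p below 0.05), but other probe sets of these genes read differently: with all their probe sets averaged both were higher, by 1.06 and 0.58.

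**Figure D3:**
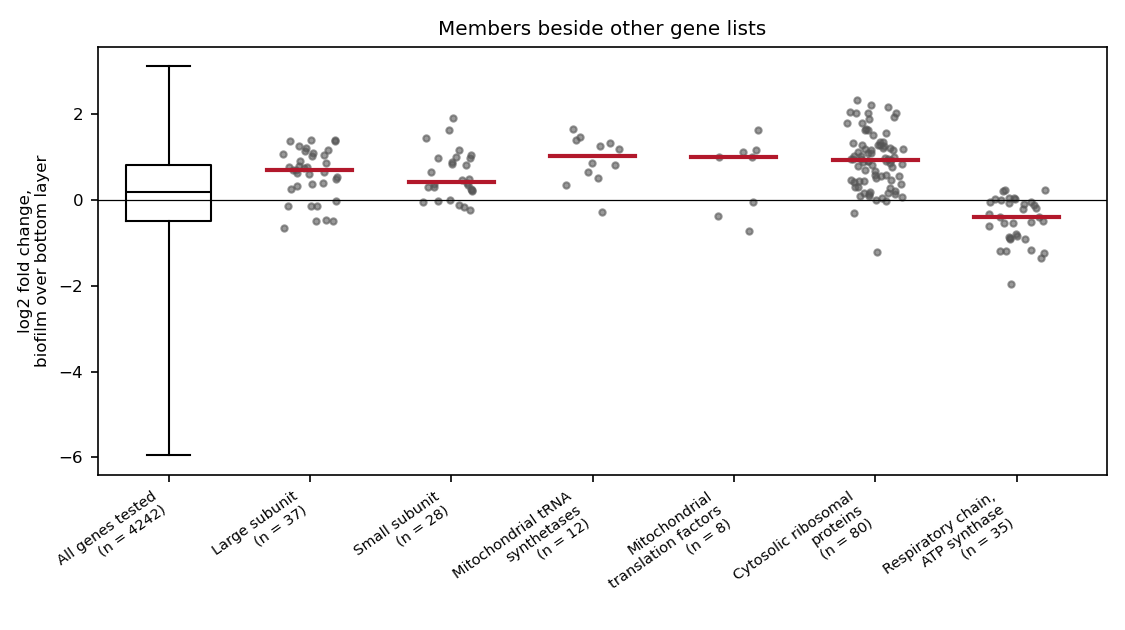
Log2 fold change, biofilm over bottom layer, of single genes (points) with the median of each list (red line); all genes tested are shown as a box of quartiles with whiskers to the lowest and highest value. The medians are 0.70 and 0.43 for the subunits of the mitochondrial ribosome, 1.03 for mitochondrial synthetases, 0.94 for cytosolic ribosomal proteins and -0.39 for respiratory chain and ATP synthase subunits.

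By median log2 fold change, mitochondrial ribosomal protein genes lay between cytosolic ribosomal protein genes and the nuclear genes of the respiratory chain. Of 137 cytosolic ribosomal protein genes only 80 had a probe set of their own and were tested. Among these 80 genes 57 were higher (71.2%, beside 38.0% of all genes tested), with a median of 0.94. None was lower by limma (also 0 at an unadjusted p below 0.05), beside 24.4% of all genes. The smallest p-values were those of RPL33B (4.14-fold), RPS0A (3.81-fold), RPL22B (4.06-fold) and RPS9A (4.07-fold). Many cytosolic genes have near-identical copies, so single ones are uncertain. Of 35 nuclear genes for subunits of the respiratory chain and ATP synthase, 15 were lower (42.9%, beside 24.4% of all genes), with a median of -0.39. None was higher by limma (also 0 at an unadjusted p below 0.05), beside 38.0% of all genes. Among the ATP synthase genes only ATP14 was lower (log2 fold change -0.80). The others, from ATP17 at -0.39 to ATP16 at 0.23, did not pass. The falls included COX9 and COX13 of complex IV, which read 2156 ± 114 and 1859 ± 348 in the biofilm against 4917 ± 256 and 4751 ± 117. RIP1 and CYT1 of complex III were 3.89-fold and 2.30-fold lower. No difference between these lists was tested.

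**Figure D4:**
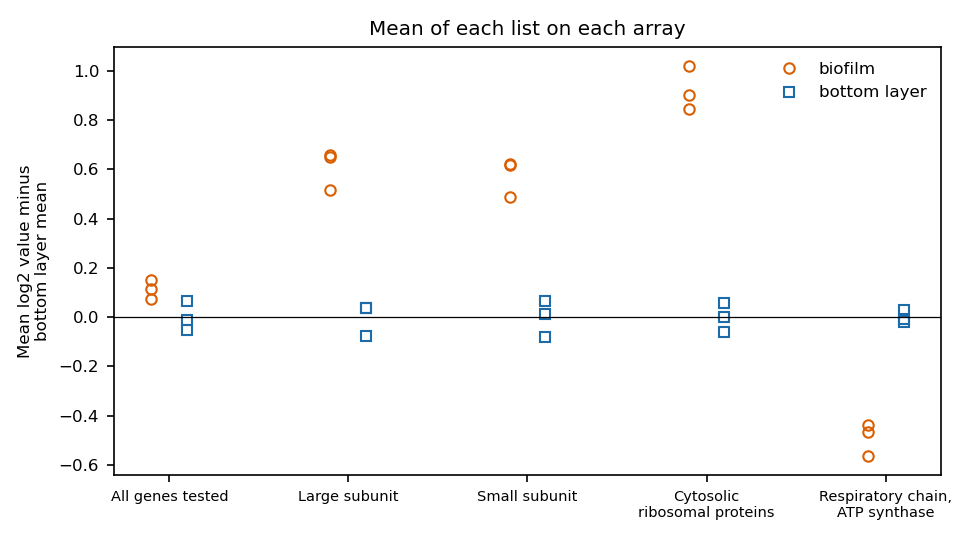
Mean log2 value of each gene list on each array, minus the mean of the 3 bottom layer arrays; circles are biofilm and squares bottom layer arrays. Biofilm arrays lie 0.52 to 0.66 above that mean for the large subunit and 0.49 to 0.62 for the small subunit, against 0.07 to 0.15 for all genes tested, 0.85 to 1.02 for cytosolic ribosomal proteins and -0.56 to -0.44 for the respiratory list.

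The offset of the 67 genes was seen on every array. Their mean log2 value exceeded that of all genes tested by 1.02, 1.06 and 0.96 on the biofilm arrays and by 0.62, 0.51 and 0.53 on the bottom layer arrays. With the ACT1 ratio as a covariate, 36 of the 67 were higher and 3 lower, where 34.1% of all genes were higher and 24.5% lower. The median of the 67 was then 0.56, beside 0.15 for all genes. Without the third bottom layer array 39 of the 67 were higher and 4 lower, beside 37.3% and 25.5% of all genes. After median centring the all-gene median was -0.04 in place of 0.17, which left 34 higher and 5 lower, where 30.5% of all genes were higher and 31.8% lower.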

How the data were processed

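RNA from the 6 samples was amplified, labelled and read on Affymetrix arrays, as the labels' protocols describe. The deposited intensity values are linear signals for 9335 probe sets, made with MAS5 per the submitters' processing notes, with settings not given in the sources used here. There were 60 control probe sets, 6504 for 1 gene, 328 for several genes and 2443 that the platform table does not list. Symbols came from the platform table and, by gene identifier, from R64. All later values were computed here.

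Values were taken as log2(signal + 16). The probe set with the highest mean log2 value was kept for each of 5656 genes, and the dimmest 25% were left out, leaving 4242. Fold changes are on this scale and understate those of dim genes. The fit used limma 3.58.1 and R 4.3.3 (lmFit, eBayes with a variance trend, two-sided, Benjamini-Hochberg over 4242 genes, threshold 0.05), without a replicate block. The fit was tested on simulated data. Signals are given per array or as mean ± SD.

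Members and lists were chosen with earlier results of these data known. Named by rule were the 8 largest rises, up to 6 falls with separate groups, the 4 brightest, the 4 nearest 0, MRP8, and up to 4 genes per other list by smallest p. Members grouped by role were named after their values were seen. RPP1, a ribonuclease P subunit, was left out of the cytosolic list. Background was the highest of 19 unspiked control probe sets on each array. The subunit was read from the platform symbol, with fixed lists for names of MRP and a number. Bacterial counterparts were read from systematic names, which 65 of the 67 genes have. The subunits matched these names, apart from RSM22 and MRP8, which have none, and MRP35. Promoter sequences were not analysed here. Alternatives were pseudocounts of 1 and 64, no filter or 50%, quantile normalization, median centring, array weights, no trend, all probe sets averaged, a replicate block, each array left out and, after seeing the data, the ACT1 covariate and MRP35 in the large subunit. Figures used matplotlib 3.10.9 in Python 3.11.15.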

Additional observations from a re-analysis of the deposited data

How the results depend on the processing

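Of the 42 genes called higher, 37 stayed called in all 6 fits that left out 1 array and 33 in all 17 alternative fits that tested them. The 5 lost on leaving out arrays were MRPL22, MRPL13, RSM18, MRPS28 and MRP1. MRPL35, MRPL49 and RSM19 were lost only after median centring (adjusted p = 0.0697, 0.112 and 0.131 by limma). MRP51 was lost only with the ACT1 ratio as a covariate. Of the 4 called lower, only MRP8 stayed called in all 17. Leaving out each array gave 37 to 42 genes higher and 1 to 5 lower, and for the large subunit 23 to 26 higher and 0 to 4 lower; the lowest counts of falls came without biofilm replicate 3. The median log2 fold change of the 67 genes was 0.53 under quantile normalization and 0.45 under median centring, and ran from 0.58 to 0.71 with 1 array left out. Relative to the median of all genes it was 0.41 to 0.57 higher in every alternative. The large subunit's median stayed above the small subunit's in all alternatives, by 0.17 to 0.32. With all probe sets of a gene averaged, the log2 fold changes of COX1 and OLI1 reversed to 1.06 and 0.58, where their probe sets disagree. Other pseudocounts changed no call among the 67 genes, and the stricter dimness filter left 62 of them.

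Whether same-numbered arrays form pairs is not known from the labels. Deviations from the group means correlated by -0.01, -0.09 and 0.16 for same-numbered arrays and by -0.21 to 0.24 for the others. With 3 arrays per group these correlations cannot settle it. With a replicate block 40 genes were higher and 5 lower, with MRP1 and MRPS28 lost (adjusted p = 0.0508 for both by limma) and MRPL6 gained. None of the 67 genes lay below background on any array, and the smallest difference called among them was 1.30-fold.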
